A study of Mus musculus with 12 samples.

Results

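Heavy chain variable segments, the Ighv genes, were counted in RNA of mature B cells sorted from mouse bone marrow. Of the 27179 genes counted, 120 had a mouse symbol starting with Ighv, and the 112 of these with 10 or more reads summed over the 12 libraries are described here. The other 8 had 0 to 7 reads each. The member with the fewest reads, Ighv1-86, had 14, and Ighv16-1, just under the limit, had 7, all of them in old replicate 1. Usage is a segment's share of all reads on the 112 members in a library, in percent.

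The 12 libraries, all from C57BL/6 mice, came in 4 groups of 3. Wild-type cells were taken from young mice (9, 10 and 11 weeks) and from old mice (98, 99 and 100 weeks). The other groups came from mice of 10 weeks that all lacked the apoptosis effector gene Bak1. Of these, Bak-/- Baxfl/fl cells, called apoptosis-sensitive, kept a floxed Bax gene, and Bak-/- BaxD/D cells, called apoptosis-resistant, carried its deleted form. The driver of the deletion was not given in the sources used here. Cells were sorted as high for B220, positive for IgM and negative for CD93, and the series states that the 3 libraries of a group are biological replicates.

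A B cell builds its heavy chain gene by joining 1 variable segment to a diversity (D) and a joining (J) segment, a step carried out by the RAG recombinase and repair enzymes. The variable segments lie in a long array on 1 side of the D segments and are grouped by sequence into families, of which Ighv1, also called J558, is the largest in the mouse. Reads on a segment therefore reflect both how many cells chose it and how much heavy chain RNA each of those cells holds. In bulk RNA the number of cells and the RNA per cell cannot be told apart. A clone that has expanded, or a few plasma cells, can raise the reads of its own segment.

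The segments that the results turn on are shown by the last 300 bases of their V exons, 5′ to 3′, read from GENCODE M21 transcripts of GRCm38, where all lie on the minus strand of chromosome 12. Capitals mark the bases that differ from the closest other member of equal exon length. The segment with the highest mean share was Ighv1-26 at chr12:114788372-114788671, which differs from Ighv1-18 at 8 bases. Ighv1-78 at chr12:115868773-115869072 and Ighv9-3 at chr12:114140692-114140991 were the only members to take over 10% of the Ighv reads of any library. They differ from Ighv1-77 at 31 bases and from Ighv9-2 at 17, of which 15 lie in the bases shown. Ighv1-69 at chr12:115623161-115623460 differs from Ighv1-59 at 8 bases. It was the 1 segment whose share passed the test with age in the main fit, which left the collection dates unpaired.
Ighv1-26: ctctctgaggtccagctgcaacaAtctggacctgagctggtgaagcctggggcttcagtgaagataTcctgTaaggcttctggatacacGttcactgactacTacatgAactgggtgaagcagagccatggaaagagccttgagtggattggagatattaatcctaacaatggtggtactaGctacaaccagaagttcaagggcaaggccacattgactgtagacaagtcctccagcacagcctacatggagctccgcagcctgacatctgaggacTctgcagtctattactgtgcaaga
Ighv1-78: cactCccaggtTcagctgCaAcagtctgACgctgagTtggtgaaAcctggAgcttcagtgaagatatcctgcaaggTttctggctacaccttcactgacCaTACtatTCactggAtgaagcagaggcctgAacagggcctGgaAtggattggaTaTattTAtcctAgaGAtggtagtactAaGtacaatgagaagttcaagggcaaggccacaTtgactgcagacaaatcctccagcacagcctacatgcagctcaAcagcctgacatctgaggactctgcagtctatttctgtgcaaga
Ighv9-3: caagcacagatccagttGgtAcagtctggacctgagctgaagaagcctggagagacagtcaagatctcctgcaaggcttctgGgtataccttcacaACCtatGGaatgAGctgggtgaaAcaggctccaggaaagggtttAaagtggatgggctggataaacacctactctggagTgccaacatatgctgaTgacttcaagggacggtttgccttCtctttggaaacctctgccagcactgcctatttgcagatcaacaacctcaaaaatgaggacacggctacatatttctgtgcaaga
Ighv1-69: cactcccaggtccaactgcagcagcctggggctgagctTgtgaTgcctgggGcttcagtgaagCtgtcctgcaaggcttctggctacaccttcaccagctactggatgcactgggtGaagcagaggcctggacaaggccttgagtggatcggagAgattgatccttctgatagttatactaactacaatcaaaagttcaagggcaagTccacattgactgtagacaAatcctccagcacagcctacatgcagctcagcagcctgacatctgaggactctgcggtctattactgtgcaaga

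All 112 members had a V exon in these transcripts, with a median of 305 bases. The median member shared 95.1% of its V exon with its closest other member. Exons of 12 members lay within 5 edits of another, and those of Ighv1-62-2 and Ighv1-71 were identical, so the division of reads among such copies is uncertain. The 12 had a median mean share of 0.324%, against 0.593% for the other 100. Near the end of the V exon lie the codons around the conserved cysteine near the start of the antigen-binding CDR3 loop. The last 36 bases of 8 segments from different families are shown, with the motif TANTNCTGT in capitals.
Ighv1-26 (end): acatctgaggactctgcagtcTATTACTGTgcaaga
Ighv9-3 (end): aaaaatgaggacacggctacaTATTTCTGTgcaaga
Ighv8-8 (end): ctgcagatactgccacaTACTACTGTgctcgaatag
Ighv2-3 (end): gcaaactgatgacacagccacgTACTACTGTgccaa
Ighv3-6 (end): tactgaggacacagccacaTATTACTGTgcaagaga
Ighv11-2 (end): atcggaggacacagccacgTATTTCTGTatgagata
Ighv12-3 (end): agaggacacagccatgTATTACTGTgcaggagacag
Ighv14-4 (end): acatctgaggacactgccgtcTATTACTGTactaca

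This motif, searched on both strands, was in the V exon of 103 of the 112 members (92%). Searched only on the strand shown, it was in the last 36 bases of 102. On both strands it was in 4.13% of 21739 windows of 305 bases from other protein-coding transcripts. A match is a description of the letters and not of function.

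Total counts per library ran from 13474162 to 23539764, and Ighv reads from 5976 in young replicate 1 to 39390 in old replicate 2, which is 0.0444% to 0.206% of the counts. Young replicate 1 and old replicate 1, the pair collected on 24 March with 2006 as the labelled year, had the fewest Ighv reads for their depth (444 and 503 raw CPM, counts per 1000000 counts, against 708 to 2057 in the other 10 libraries). The B cell genes Cd79a and Ms4a1 were detected in every library, at 809 or more and 636 or more CPM, here after TMM scaling of library sizes, as for all single genes below. Bax reads were 988, 957 and 2141 in apoptosis-sensitive libraries and 72, 106 and 175 in apoptosis-resistant libraries. Bak1 was at 26.4 to 47.0 raw CPM in wild-type libraries and at 6.36 to 14.3 in the Bak1-deficient ones. Every pair of replicates differed in Ighv usage by more than counting noise, with chi-square values of 1.76 per degree of freedom or more.

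Usage was broad, and the order of the segments was similar from library to library. Reads were found on 104 to 112 members in each library, and on 100 members in all 12. The 39 members with a mean share above 1% together took 75.9% of the reads, the 12 most used took 37.9%, and the 20 members under 0.1% took 0.803%. Spearman correlations of the shares between libraries, a description across the 112 segments with no test, ran from 0.837 to 0.987 over the 66 pairs. The lowest of these involved old replicate 2.

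Ighv1-26, a segment of the large J558 family, was the most used. Its shares were 6.76, 6.93 and 8.43% in young libraries, 4.71, 7.53 and 5.71% in old, 9.02, 6.65 and 6.28% in apoptosis-sensitive and 7.55, 7.11 and 7.89% in apoptosis-resistant libraries. It ranked first in 10 of the 12 libraries, the exceptions being old replicate 1 and old replicate 2, and it also ranked first when reads were divided by exon length. The groups overlapped in its share.

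The segments next in mean share were Ighv9-3 (3.98%), Ighv1-9 (3.52%), Ighv1-18 (3.19%) and Ighv3-6 (2.83%). After them came Ighv1-82, Ighv1-64, Ighv1-80, Ighv1-81, Ighv8-8, Ighv1-55 and Ighv1-78, at 2.78 to 2.31%. Their SDs over the 12 libraries were 0.349 to 4.72 percentage points, so the order among neighbours after Ighv1-26 lies within the spread between libraries. Ighv1-55 had the smallest spread of the 12, from 1.74 to 2.81%, and Ighv1-78 the largest, from 0.644 to 17.3%. Without old replicate 2 the mean of Ighv1-78 was 0.949%, which ranked 40 among the members, and Ighv9-3 ranked 4 with 3.08%, after Ighv1-9 and Ighv1-18. The segment that then ranked 12 was Ighv1-53 (2.25%).

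**Figure D1:**
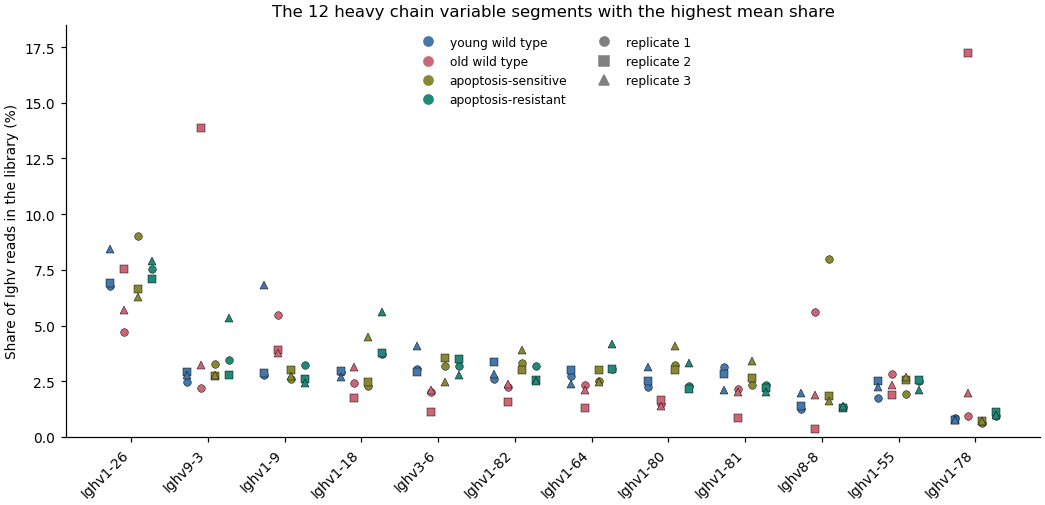
Share of Ighv reads (vertical axis, percent) of the 12 segments with the highest mean share; each point is 1 library, coloured by group and shaped by replicate number. Ighv1-26 lies between 4.71 and 9.02% in all libraries, while Ighv1-78 and Ighv9-3 stand at 17.3 and 13.8% in old replicate 2 alone.

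Old replicate 2 stood apart from all other libraries through a pair of segments. Ighv1-78 took 17.3% of its Ighv reads (6796 reads), against 0.644 to 1.95% in the other 11 libraries, whose median was 0.870%. Ighv9-3 took 13.8% (5453 reads), against 2.21 to 5.34% elsewhere. A further segment, Ighv1-76, took 4.56% there and 0.932 to 1.70% in the rest. The 95% Wilson interval of the Ighv1-78 share was 16.9 to 17.6%, which covers counting error only.

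The 8 heavy constant regions summed to 15800 CPM in old replicate 2, the highest of the 12 libraries, where the others ran from 5105 to 11720 CPM. This did not hold for each gene: Ighm, the constant region of IgM, was at 9005 CPM there and 9584 CPM in sensitive replicate 1, and Ighg3 at 104 CPM there and 169.8 CPM in old replicate 3. Igha, the constant region of IgA, was at 4267 CPM there, against 128 and 481 CPM in the other old libraries and 6.82 to 36.5 CPM in young ones. In apoptosis-sensitive libraries Igha was at 47.15 to 184.5 CPM, and in apoptosis-resistant ones at 59.48 to 210.8 CPM. Switched constant regions, those of IgG, IgE and IgA, made up 32.7% of the constant region reads of old replicate 2, 9.38 and 9.27% in the other old libraries, 0.290 to 1.54% in young, 0.968 to 3.48% in apoptosis-sensitive and 1.96 to 9.71% in apoptosis-resistant libraries. The antibody-joining gene Jchain, a mark of antibody-secreting cells, was at 1049 CPM in that library and at 16.7 to 358 CPM in the other 11. The 8 plasma cell markers, Jchain among them, summed to 1592 CPM there and to 220 to 742 CPM elsewhere, so that Jchain made up most of that sum. Sdc1, Prdm1, Xbp1, Tnfrsf17 and Derl3 were also highest in that library. Mzb1 was not, at 247 CPM there and 258 CPM in resistant replicate 3. Nor was Slamf7, at 59.2 CPM there and 82.6 CPM in resistant replicate 2. Whether these reads and the reads of Ighv1-78 and Ighv9-3 came from the same cells was not tested.

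Evenness was described by the effective number of segments, the number of equally used segments that would give the same Shannon entropy. It was 68.4, 61.6 and 57.2 in young, 64.9, 34.6 and 60.2 in old, 54.9, 63.9 and 63.0 in apoptosis-sensitive and 64.3, 66.3 and 59.0 in apoptosis-resistant libraries. Old replicate 2 was the lowest, the other 11 lay between 54.9 and 68.4, and all groups overlapped. Group means were 62.4 ± 5.64, 53.2 ± 16.3, 60.6 ± 4.96 and 63.2 ± 3.81 (SD, n = 3 each), so the difference of old minus young, -9.16, was within the spread of the old libraries. Without old replicate 2 it was 0.150. The difference of resistant minus sensitive was 2.60, and -0.248 without sensitive replicate 1.

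With Ighv1-78 and Ighv9-3 left out, a choice made after seeing the data, the effective number of old replicate 2 was 51.2, still the lowest of the 12, where the others ran from 53.4 to 66.7. The 7 most used segments gave 50% of the reads of old replicate 2, whereas 15 to 20 were needed in the other libraries. The top 5 segments took 47.1% there and 18.6 to 26.8% elsewhere. The number of members with reads was not lower in old cells. At an equal depth of 5976 Ighv reads, 105 ± 0.761 members were expected in young, 107 ± 1.99 in old, 105 ± 1.13 in apoptosis-sensitive and 107 ± 0.889 in apoptosis-resistant libraries (SD, n = 3 each).

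**Figure D2:**
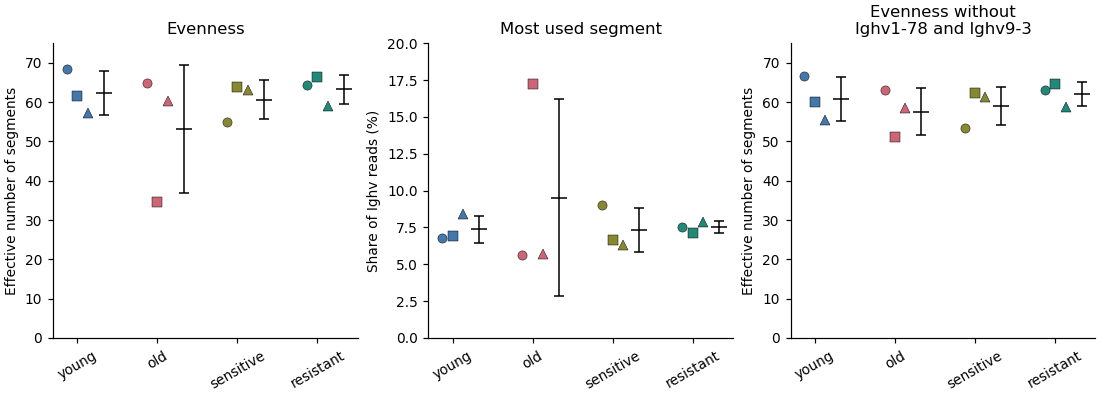
Effective number of segments (left), share of the most used segment in percent (middle) and effective number without Ighv1-78 and Ighv9-3 (right) for each library, with group mean and SD (n = 3) as black bars. Old replicate 2 is the low point on the left at 34.6 and the high point in the middle at 17.3%, and lies at 51.2 on the right.

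Segments that were high in 1 library were also found outside old replicate 2. A rule set after seeing the data counted segments with at least 1% of a library's reads and at least 3 times the median of the other 11 libraries. It found 16 cases in 15 segments, 9 in the old libraries, 3 in the young, 3 in the apoptosis-sensitive and 1 in the apoptosis-resistant ones. Without old replicate 2, 4 were in old replicate 1 and 2 in old replicate 3. The share of reads on such segments was 14.8, 35.7 and 9.42% in the old libraries. It was 3.55, 5.69 and 0% in the young, 11.2, 3.42 and 0% in the apoptosis-sensitive, and 0, 0 and 2.78% in the apoptosis-resistant libraries. The old values thus overlapped those of the apoptosis-sensitive libraries but not those of the young.

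In old replicate 1 the cases were Ighv8-8 (5.62%, its most used segment), Ighv1-85 (5.10%), Ighv12-3 (2.56%) and Ighv11-2 (1.53%). In old replicate 3 they were Ighv1-39 (5.34%) and Ighv14-4 (4.08%). Among young libraries, Ighv2-3 took 5.69% of replicate 2, and Ighv5-2 and Ighv1-47 took 1.89 and 1.66% of replicate 1. Ighv5-2 and Ighv1-47 were next highest, at 1.62 and 1.12%, in old replicate 1, which shares the labelled collection date of young replicate 1. In apoptosis-sensitive cells Ighv8-8 and Ighv1-12 took 7.98 and 3.19% of replicate 1, and Ighv4-1 took 3.42% of replicate 2. In apoptosis-resistant cells only Ighv1-63, with 2.78% of replicate 3, met the rule. Ighv8-8 was the 1 segment that met the rule in more than 1 library.

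The distance between libraries, the percentage of reads that would have to move to another segment to make their usage equal, was largest among the old libraries. Within the old group it was 26.4, 34.0 and 40.0%. Within the young group it was 15.6 to 20.5%, within the apoptosis-sensitive group 13 to 19.5% and within the apoptosis-resistant group 6.27 to 13.7%. Without Ighv1-78 and Ighv9-3 the old distances were 23.2 to 28.3%, and still above all those within the other groups, of which the highest was then 21.1%. The median distance to the other 11 libraries was 37.2% for old replicate 2, 25.4% for old replicate 1, 22.7% for old replicate 3 and 13.7 to 19.8% for the remaining 9. With 3 libraries a group, these distances share libraries and were not tested.

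**Figure D3:**
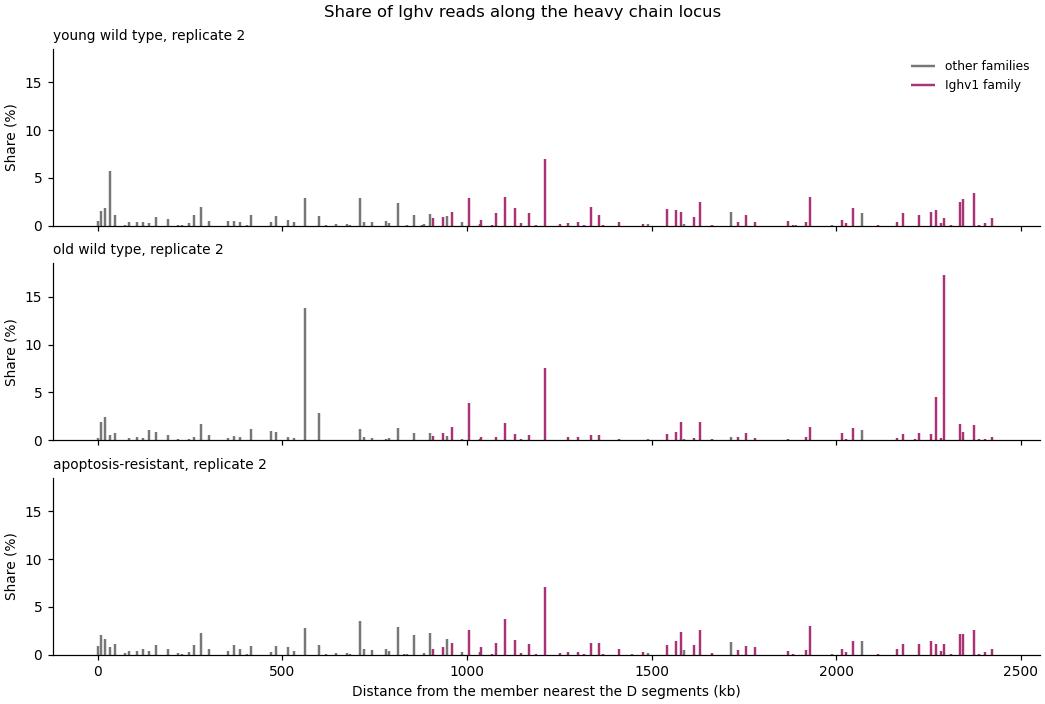
Share of Ighv reads (vertical axis, percent) of each member against its distance in kb from the member nearest the D segments, in young, old and apoptosis-resistant replicate 2; purple bars are the Ighv1 family. The tall bars of old replicate 2 are Ighv9-3 and Ighv1-78, at 13.8 and 17.3%, and the purple bar near the middle of each panel is Ighv1-26.

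By position, the 56 members nearest the D segments took 44.8 ± 2.68% of the reads in young, 45.6 ± 0.386% in old, 42.9 ± 4.42% in sensitive and 44.2 ± 3.16% in resistant libraries (SD, n = 3 each). The groups overlapped. The difference of old minus young was 0.816 percentage points. It was 4.07 without Ighv1-78, which lies among the far members and whose removal brings old replicate 2 to 55.3%, with Ighv9-3, among the 56 near ones, still in the sum. It was 1.605 without both segments, with old replicate 2 at 46.3%.

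Among segments near the D end, Ighv5-2, known as V81X and the member nearest to them, had shares from 0.198 to 1.89% and a mean of 0.783%. Its neighbour Ighv2-2 had shares of 1.12 to 2.02%. The member farthest from the D segments, Ighv1-86, is annotated as a pseudogene and had at most 0.0152%. The 6 members that GENCODE annotates as pseudogenes took 0.124 to 0.583% of the reads. The highest values were those of old replicate 1 and then young replicate 1 (0.485%), which share a labelled collection date. Group means were 0.274 ± 0.189, 0.416 ± 0.153, 0.186 ± 0.0665 and 0.208 ± 0.0487% in young, old, sensitive and resistant libraries.

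Of the 15 families, Ighv1, with 56 members, took 59.6 ± 3.11% of the reads (SD over 12 libraries). Its shares were 60.7 ± 3.92% in young, 57.6 ± 2.58% in old, 60.4 ± 3.56% in sensitive and 59.8 ± 3.03% in resistant libraries, and the groups overlapped. Then came Ighv5 (8.32%, led by Ighv5-17), Ighv2 (5.30%, led by Ighv2-2), Ighv9 (5.24%, led by Ighv9-3), Ighv8 (4.49%, led by Ighv8-8), Ighv3 (3.98%, led by Ighv3-6), Ighv14 (3.85%, led by Ighv14-4), Ighv6 (3.50%, led by Ighv6-3) and Ighv10 (2.55%, led by Ighv10-1). Ighv4-1, Ighv11-2, Ighv12-3, Ighv13-2, Ighv15-2 and Ighv7-4 led the remaining 6 families, at mean family shares of 1.0, 0.761, 0.522, 0.432, 0.208 and 0.203%.

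Old and young libraries did not overlap in 3 of the 15 families, where 16.2% of all single genes did not overlap. Ighv3 was at 5.15, 4.01 and 4.93% in young and 3.00, 1.79 and 3.07% in old libraries. Ighv14 was at 3.15, 3.64 and 3.35% in young and 3.78, 5.00 and 6.79% in old libraries. Ighv11, a small family known from B-1 cells, was at 0.820, 0.412 and 0.886% in young and 1.72, 0.995 and 1.10% in old libraries. Between the apoptosis groups 1 family, Ighv13, did not overlap (14.6% of all single genes did not), with 0.33, 0.365 and 0.340% in sensitive and 0.710, 0.610 and 0.417% in resistant libraries. Ighv9 reached 14.8% in old replicate 2 through Ighv9-3 and was at 3.00 to 6.82% in the other libraries. Family shares were not tested.

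**Figure D4:**
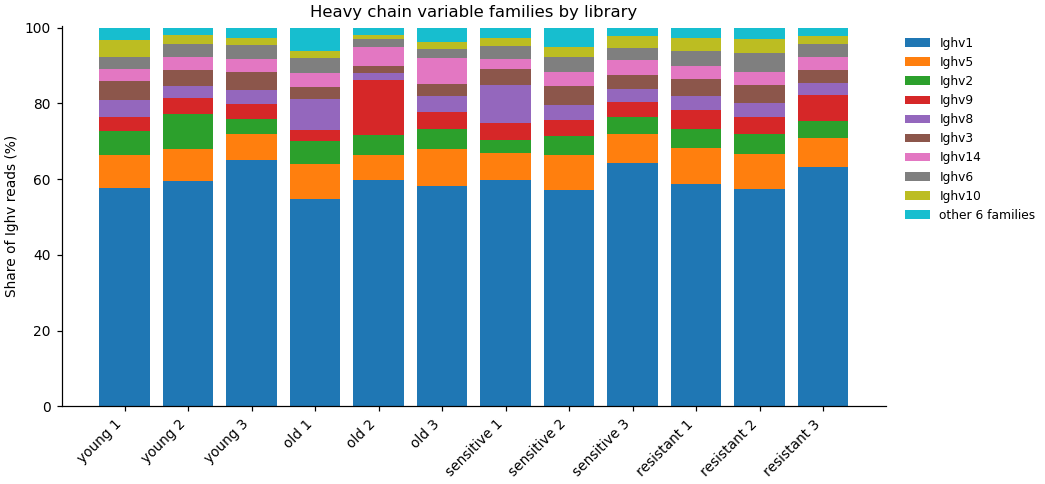
Stacked shares of Ighv reads (percent) by family for each of the 12 libraries; the 6 smallest families are drawn together. Ighv1 fills 54.7 to 65.1% of every bar, and Ighv9 is widened to 14.8% in old replicate 2.

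Wild-type cells of old and young mice were compared to ask which segments change with age. Ighv1-69 was the 1 segment whose share passed the test in the main fit, which left the collection dates unpaired. Its shares were 2.06, 1.87 and 2.59% in young and 1.14, 1.32 and 1.13% in old libraries, against 1.46 to 1.81% in the Bak1-deficient ones. The old libraries all lay below the young. The share fell from 2.18 ± 0.375 to 1.20 ± 0.104% (SD, n = 3 each), a log2 fold change of -0.86 ± 0.19 (edgeR adjusted p = 0.0392).

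This was 1 of 98 members tested, or 1 lower and 0 higher. In the same fit 2.02% of all genes were called, 1.7% as higher and 0.316% as lower. An unadjusted p under 0.05 was found for 22 of the 98 members (22.4%), against 11.7% of all genes. The median log2 fold change of share was -0.27 over the members, where it was -0.035 over all genes. Genes that are not members enter this fit by level and not by share, so these scales are unlike. By level the median was -0.0666 over the members and -0.0348 over all genes. The Ighv1-69 call was lost with only the 6 libraries compared, without the filter on low counts, with TMM over the Ighv genes as the denominator (log2 fold change -0.54), and without any single library other than sensitive replicate 3. Shares of 1 library sum to 100%, and without Ighv1-78 and Ighv9-3 in the sum the Ighv1-69 share of old replicate 2 was 1.91%, against 1.95 to 2.69% in young libraries.

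The collection date paired the wild-type libraries, and with the date as a block 11 of the 98 members were called by share, 1 higher and 10 lower, where 15% of all genes were called. These were Ighv2-6 as higher and Ighv1-50, Ighv3-6, Ighv1-80, Ighv1-69 (adjusted p = 0.00584), Ighv10-3, Ighv1-4, Ighv3-3, Ighv6-6, Ighv1-54 and Ighv1-72 as lower. DESeq2 called 8 of 97 by share, and 5.19% of all genes. These were Ighv2-6 and Ighv1-78 as higher and Ighv2-3, Ighv3-6, Ighv1-4, Ighv1-50, Ighv1-69 (adjusted p = 0.000559) and Ighv1-80 as lower. Read against these backgrounds, the counts are no result about the members in particular.

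Old and young shares did not overlap in 19 of the 98 members (19.4%), 3 higher and 16 lower in old cells. Of all genes tested, in CPM where they are not members, 16.2% did not overlap, 9.16% as higher and 7.05% as lower. Ighv1-50, with 1.54, 1.75 and 2.82% in young and 0.853, 0.685 and 1.16% in old libraries, did not pass the test in the fit without the block (log2 fold change -1.19 ± 0.29, edgeR adjusted p = 0.0667). The same was true of Ighv3-6, at 3.06, 2.89 and 4.09% in young and 2.01, 1.14 and 2.12% in old libraries (-0.94 ± 0.26, 0.097 in edgeR). Ighv1-80 was at 2.24, 2.52 and 3.15% against 1.46, 1.64 and 1.40%, and did not pass (-0.82 ± 0.22, 0.0923 in edgeR). Without Ighv1-78 and Ighv9-3 in the sum, 3 of 96 members did not overlap as higher and 13 as lower, together 16.7%, against 16.2% of all genes (9.16% as higher and 7.03% as lower).

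Ighv1-78 was at 0.870, 0.763 and 0.777% in young and 0.926, 17.3 and 1.95% in old libraries. Its log2 fold change of share was 3.08 ± 0.82 and did not pass (edgeR adjusted p = 0.0864). For Ighv9-3 it was 1.25 ± 0.54 (0.385 in edgeR), with 2.48 to 2.90% in young libraries and 2.21 and 3.22% in the old libraries other than replicate 2. Both values rest mainly on 1 library. By share, Ighv1-78 passed in DESeq2 (adjusted p = 0.00107) and in edgeR when old replicate 1 (0.0204) or the 24 March pair (0.0494) was left out.

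**Figure D5:**
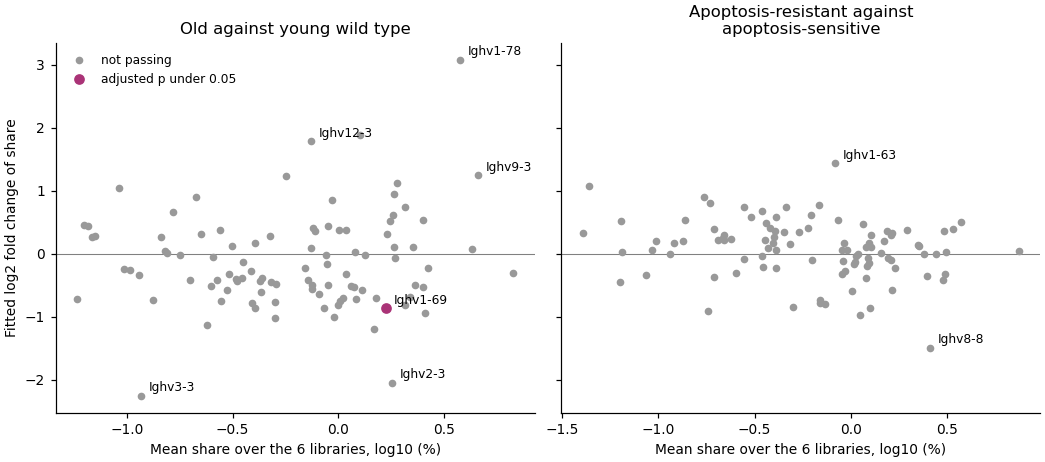
Fitted log2 fold change of share (vertical axis) against the mean share over the 6 libraries compared (log10 of percent), for the 98 tested members, old against young (left) and apoptosis-resistant against apoptosis-sensitive (right). Ighv1-69, the purple point at -0.86, is the 1 member that passed in this fit, which left the collection dates unpaired. Ighv1-78 lies highest on the left at 3.08.

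At the level of RNA, scaled to all genes of the library, 0 of the 98 members changed with age in edgeR, where 2.01% of all genes did. An unadjusted p under 0.05 was found for 10 members (10.2%), against 11.6% of all genes, and DESeq2 called 4, against 5.16% of all genes. The lowest p were those of Ighv3-3 (log2 fold change -2.01 ± 0.48, edgeR adjusted p = 0.0555), Ighv1-78 (4.13 ± 1.18, 0.116), Ighv2-6 (1.86 ± 0.57, 0.147) and Ighv2-3 (-1.81 ± 0.60, 0.201), none of which passed. DESeq2 called these 4. Ighv3-3 was low in all of these libraries, at 0.256 to 0.376 CPM in old and 1.03 to 1.81 CPM in young, so its change rests on few reads. With the date block 7 of 98 members were called, where 14.9% of all genes were. These were 2 higher (Ighv5-4, Ighv12-3) and 5 lower (Ighv1-81, Ighv1-54, Ighv2-3, Ighv3-3, Ighv1-50). Without the 24 March pair 1 was called, Ighv14-4, as higher. Ighv2-3 rests on young replicate 2, where its share was 5.69% against 2.01 and 0.969% in the other young and 0.526 to 0.926% in the old libraries. By level Ighv2-6 rests mainly on old replicate 2. It was at 3.8, 21.9 and 4.4 CPM in old and 2.38 to 3.10 CPM in young libraries. Its log2 fold change by level was 0.566 without old replicate 2.

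The segments Ighv11-2 and Ighv12-3 are known from B-1 cells that bind phosphatidylcholine. Ighv11-2 was at 0.770, 0.365 and 0.855% in young and 1.53, 0.988 and 1.07% in old libraries, without overlap, and did not pass by share (0.86 ± 0.43, edgeR adjusted p = 0.511). Ighv12-3 was at 0.552, 0.220 and 0.243% in young and 2.56, 0.170 and 0.703% in old libraries. Its groups overlapped, and its log2 fold change of share of 1.79 ± 0.78 did not pass (0.397 in edgeR). In the Bak1-deficient libraries Ighv11-2 was at 0.291 to 1.09% and Ighv12-3 at 0.116 to 0.386%.

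Of 14 genes known from B-1 cells 5 rose with age in level and 0 fell, with a median log2 fold change of 1.34. The 5 were Zbtb32 (from 11.9 ± 6.29 to 73.6 ± 41.3 CPM), Bhlhe41, Ahr, Ptpn22 and Plscr1, while Cd5, the classical B-1a surface gene, was at 2.05 ± 0.324 and 2.82 ± 0.938 CPM and did not pass. Of the 8 heavy constant regions 1, Igha, rose (edgeR adjusted p = 0.0385) and 0 fell. No member of the list was called among 14 recombination and joining genes (median log2 fold change -0.29, against -0.03 over all genes), 12 hypermutation and class switch genes, 10 heavy chain transcription factor genes and 17 plasma cell genes. Rag1 was at 3.78, 5.35 and 20.2 CPM in young and 0.978, 0.154 and 1.5 CPM in old libraries, and did not pass (-3.47 ± 0.83, 0.0571).

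Markers of other cells differed between the same groups. Of 7 immature B cell markers 2 fell, Cd93 and Sox4, and the list summed to 55.3 to 93.7 CPM in young and 13.3 to 25.4 in old libraries. Of 6 T cell markers 2 rose, with sums of 1.03 to 2.44 and 14 to 17.9 CPM. Of 3 tested NK cell markers 1 rose (sums of 0.385 to 2.24 and 3.94 to 6.12 CPM over 4 markers), of 5 monocyte markers 1 (22.7 to 152 and 86.7 to 220 CPM), and of 5 stromal markers 1 (2.22 to 12.3 and 17.4 to 139.8 CPM). Of 10 mature B cell markers 0 changed, with sums of 23490 to 24400 and 17330 to 21830 CPM. Cd3e, Klrb1c, Col1a1, Lepr and Kitl were at 0 in young replicate 1, Cd3d in young replicate 2, Ncr1 in young replicate 3, and Rag2 and Vpreb1 in old replicate 2. The part of these cells in the Ighv differences was not tested.

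Resistant and sensitive cells differ by Bax where Bak1 is already absent, and were compared to ask which segments change with its loss. No member passed in either scale, with 0 of 98 by level and 0 of 98 by share, where 0.0441% of all genes were called in each fit. In edgeR an unadjusted p under 0.05 was found for 5 members by level (5.1%, against 4.9% of all genes) and 2 by share (2.04%, against 4.89%). DESeq2 (0.944% of all genes by level, 0.952% by share) and the fit with the date block (3.41% in both) each called 0 members. Shares of 15 members (15.3%) did not overlap, 12 higher and 3 lower in resistant cells, where 14.6% of all genes did not, 6.3% as higher and 8.31% as lower. The median log2 fold change of share was 0.105, where it was -0.02 over all genes, which enter by level where they are not members. By level the median was 0.159 over the members.

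Ighv1-4 had the lowest p by share, with 1.0, 0.811 and 0.816% in sensitive and 0.456, 0.583 and 0.484% in resistant libraries. These groups did not overlap, but the log2 fold change of -0.79 ± 0.29 did not pass (edgeR adjusted p = 0.749). Ighv1-63 was at 0.368, 0.454 and 0.517% in sensitive and 0.377, 0.447 and 2.78% in resistant libraries, so that its log2 fold change of 1.44 ± 0.63 rests on resistant replicate 3 and was -0.11 without it. Ighv2-9 was at 0.312 to 0.341% in sensitive and 0.448 to 0.562% in resistant libraries, and Ighv1-50 at 1.64 to 2.41% and 1.06 to 1.59%. Neither passed (0.59 ± 0.28 and -0.57 ± 0.29 on the log2 scale, edgeR adjusted p = 1).

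By level the lowest p were those of Ighv13-2 (0.77 ± 0.30, edgeR adjusted p = 0.822), Ighv5-2 (0.84 ± 0.33, 0.849), Ighv1-14, an annotated pseudogene (1.12 ± 0.49, 1), and Ighv1-63 (1.56 ± 0.70, 1). Ighv5-2 was at 4.79, 3.59 and 4.21 CPM in sensitive and 6.34, 8.12 and 8.07 CPM in resistant libraries, without overlap. Ighv1-14 had few reads, at 0.19 to 0.28 CPM in sensitive and 0.48 to 0.57 CPM in resistant libraries. In every list named above, the marker lists included, 0 genes changed in this comparison. Ighv1-26 was at 7.32 ± 1.49% in sensitive and 7.52 ± 0.394% in resistant cells.

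Sensitive cells were also set beside young wild-type cells, from which they differ in Bak1, the floxed Bax and every date of collection. No member passed by level or by share, and 0% of all genes were called in both fits. Bak1, at 28.6 to 47 raw CPM in young and 6.36 to 12.2 in sensitive libraries, was thus not called either. The absence of calls therefore does not show that usage was alike. An unadjusted p under 0.05 in edgeR was found for 1 member by level (1.02%, against 2.73% of all genes) and 3 by share (3.06%, against 2.76%). DESeq2 called 0 members, against 0.103% of all genes. The lowest p by share were those of Ighv1-12 (1.5 ± 0.56), Ighv1-69 (-0.46 ± 0.19), Ighv2-3 (-1.25 ± 0.55) and Ighv4-1 (1.25 ± 0.62), with an edgeR adjusted p of 0.822 each. Ighv1-12 and Ighv4-1 rest on 1 sensitive library each, and Ighv2-3 on young replicate 2. By level the lowest p were those of Ighv2-3, Ighv1-12, Ighv8-2 and Ighv5-12, with an edgeR adjusted p of 0.824 each. Ighv1-69 was at 2.06, 1.87 and 2.59% in young and 1.48, 1.47 and 1.81% in sensitive libraries, without overlap. This comparison and that of old with young share the young libraries.

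The age effect and the genotype effect were also set against each other in 1 fit. No member's effects differed past the threshold, with lowest edgeR adjusted p values of 0.279 by level and 0.378 by share.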

How the data were processed

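RNA of 12 libraries of mature B cells was read as 1 table of whole-number counts per gene, as the authors deposited it. Per the submitters' processing notes it was made with Subread and featureCounts on mm10. Their versions, the annotation and the strand setting are not given in the sources used here. Per the labels, polyadenylated RNA came from a Qiagen kit and libraries from TruSeq v2. Symbols came from RefSeq by Entrez number (25275 of 27179 genes; 1904 had none), and gene types, lengths and V exons from GENCODE M21 by symbol (112 of 112 members). Groups, ages and dates came from the labels. Reads shared between near-identical segments, and mutated or junction bases that were not aligned, cannot be recovered from counts per gene, which affects shares.

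All 12 libraries were fitted by group with edgeR 4.0.16 (R 4.3.3), the robust quasi-likelihood test, TMM factors and filterByExpr (minimum 10 reads), which kept 13592 genes and 98 members. The other 14 members were described by their reads only. For shares the offset of each Ighv row was the log of the library's Ighv total. P values were adjusted by Benjamini-Hochberg over all genes, with a threshold of 0.05 and 8 residual degrees of freedom (4 with the block). Both tests were checked on simulated data. Alternatives were DESeq2 1.42.0, other normalizations, filters and denominators, the date block and leaving out libraries. Fold changes are fitted, on the log2 scale, ± SE.

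Equal replicate numbers share a collection date within wild type and within Bak1-deficient mice, per the labels. Deviations from group means correlated at 0.745, 0.512 and 0.555 for young and old and at 0.284, 0.325 and 0.487 for the Bak1-deficient pairs.

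Segments named are the 12 most used, any with 10% or more of a library, the called ones or the 4 lowest p of each comparison and scale, segments of B-1 cells, those at the ends of the array and the most used of each family. Others were named after their values were seen, as high in 1 library, not overlapping or called under an alternative. The members and lists were chosen with earlier results of these data known. Scores over members, families and distances were not tested.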

Additional observations from a re-analysis of the deposited data

How the results depend on the processing

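Between old and young cells, the number of members called by share was 1. It was 0 without the filter on low counts, 0 with only the 6 libraries compared, 0 with TMM over the Ighv rows as denominator, 8 in DESeq2 and 11 with the collection date as replicate block. It ranged from 0 to 1 when each library was left out. The number called by level was 0, and was 4 in DESeq2, 7 with the date block, 1 without the 2006 pair (Ighv14-4) and 0 to 2 when each library was left out. By share and without that pair the count was 1, Ighv1-78 as higher, and Ighv1-69 was not called (log2 fold change -0.87). The fewer libraries or changed offset are part of these settings, and the cause was otherwise not tested. The counts of 0 between the apoptosis groups and between sensitive and young cells stayed at 0 in every alternative run, and the block changed no call there. No paired analysis was possible for sensitive against young cells because these groups share no date.

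The share of the 56 members nearest the D segments, old minus young, was 0.816 percentage points, 4.07 without Ighv1-78 through old replicate 2, and 1.605 without Ighv1-78 and Ighv9-3, a setting chosen after seeing the data. The effective number, old minus young, ranged from -15.0 to 0.150 when a library was left out, and was -3.15 without the same pair. When a library was left out, the log2 fold change of Ighv1-63 ranged from -0.069 to 2.01 by level and from -0.11 to 1.86 by share, turning its sign without resistant replicate 3. That of Ighv1-12 ranged from -0.020 to 2.04 by level, turning its sign without sensitive replicate 1. The number of members with a read, resistant minus sensitive, was 0, and 1.13 at equal depth. Depth was lowest in the 2006 pair, with 5976 and 9609 Ighv reads, where a segment at 0.1% has few reads.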

Other observations

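Old replicate 2 was the highest of the 12 libraries both in excess usage of single segments (35.7%) and in class switching (32.7%). Old replicate 1 and old replicate 3 were among the next highest in both. The order of the other libraries differed between these measures, and their relation was not tested. Resistant replicate 3 had 9.71% switched constant region reads, above old replicate 1 and old replicate 3 (9.38 and 9.27%), and 2.78% of its Ighv reads on a segment in excess, against 14.8 and 9.42% in those old libraries. Sensitive replicate 1 had 3.48% switched reads and 11.2% on excess segments, with Jchain at 358 CPM, the second highest of the 12.

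The closest pair of libraries in segment usage was resistant replicate 1 and resistant replicate 2, with a distance of 6.27%, and the farthest was old replicate 1 and old replicate 2, with 40.0%. Ighv reads per 100 constant region reads ran from 6.62 in sensitive replicate 3 to 12.8 in old replicate 2.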
